A study of Mus musculus with 4 samples.

Results

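Opposite-strand transcripts carry the name of a neighbouring gene plus the suffix os, os2 or os3, because they were annotated on the other strand of that gene. They were taken from the RNA-seq tables of embryonic mouse kidneys by that rule: a row was a member where its symbol was another symbol of the same table plus one of these suffixes. The rule found 107 transcripts among 22761 gene names present in all 4 libraries, with 107 base genes. Emx2os, Fam120aos and Ccpg1os led to the choice of this group and were chosen by their measured FPKM differences between mutant and control libraries, so the values of these 3 are a description and support nothing further. Strand annotation was found for both partners of 104 pairs, and in 104 of these the partners lay on opposite strands. By RefSeq class, 94 transcripts were lncRNA, 4 antisense RNA, 8 protein-coding and 1 a transcribed pseudogene.

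The libraries were made from whole kidneys at stage E18.5. The 2 mutant libraries came from Hnf4a c/c ; Six2GFPcre embryos and the 2 control libraries from Hnf4a c/+ ; Six2GFPcre embryos, both of mixed strain. Six2GFPcre drives Cre recombinase in nephron progenitors, so the deletion reaches the cells that form the nephron and not the stroma, vessels or collecting duct of the same kidney. Both groups carry this transgene, and the controls also carry 1 conditional allele of Hnf4a, a nuclear receptor of the proximal tubule. The labels name no animals, so p-values measure only the spread between these libraries.

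Genes on opposite strands often share a start region: a bidirectional promoter, usually rich in CG dinucleotides, sends one transcript each way. In other pairs the opposite-strand RNA starts inside or beyond its partner and covers part of it. Many such RNAs are long noncoding RNAs kept at low levels beside developmental transcription factors, and a few encode small proteins. A library made without strand marking does not record which strand a read came from. The labels do not say that strand was used in counting, so reads from the overlapping part of a pair cannot be told apart.

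The start regions of 4 transcripts whose values are described below are shown because they differ in distance to the base gene. Each is the RefSeq window of build GRCm38.p6 from 250 bases before to 50 bases after the start, read along the transcript's own strand. The first 3 windows contain the start site of the base gene, and capitals mark their first 50 transcribed bases. The annotated starts lie 128 bases apart for Ccpg1os (chr9:72985327-72985626, minus strand), 52 for Fam120aos (chr13:48967862-48968161, plus strand) and 126 for Lhx1os (chr11:84525410-84525709, plus strand).
Ccpg1os: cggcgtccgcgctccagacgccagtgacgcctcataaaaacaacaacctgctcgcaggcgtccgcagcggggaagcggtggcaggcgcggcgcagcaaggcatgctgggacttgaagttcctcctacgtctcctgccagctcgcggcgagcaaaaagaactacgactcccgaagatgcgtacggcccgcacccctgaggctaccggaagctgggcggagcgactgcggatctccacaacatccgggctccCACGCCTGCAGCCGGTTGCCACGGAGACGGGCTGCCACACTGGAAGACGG
Fam120aos: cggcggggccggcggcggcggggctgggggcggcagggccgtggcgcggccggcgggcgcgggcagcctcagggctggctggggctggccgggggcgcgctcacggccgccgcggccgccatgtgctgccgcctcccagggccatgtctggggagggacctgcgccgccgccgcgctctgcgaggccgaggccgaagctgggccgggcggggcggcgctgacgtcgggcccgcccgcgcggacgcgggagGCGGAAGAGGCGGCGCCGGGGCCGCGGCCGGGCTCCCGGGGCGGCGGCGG
Lhx1os: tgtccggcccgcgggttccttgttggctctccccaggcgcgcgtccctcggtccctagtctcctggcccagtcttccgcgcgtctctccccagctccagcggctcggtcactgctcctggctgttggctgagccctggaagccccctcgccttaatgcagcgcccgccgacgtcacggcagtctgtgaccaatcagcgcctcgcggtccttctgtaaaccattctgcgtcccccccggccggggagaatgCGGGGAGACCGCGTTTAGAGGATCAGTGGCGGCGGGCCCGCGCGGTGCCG
These windows hold 33, 54 and 33 CG dinucleotides, against medians of 8.0 over the windows of all transcripts matched, 19 over those of base genes and 7.0 over all windows in the table. The window of Hnf4aos (chr2:163541672-163541971, minus strand) is of another kind: the nearest annotated Hnf4a start is 5434 bases away and outside it, and it holds 4 CG dinucleotides. Capitals mark a match to CAAAGTCC, a core of the Hnf4a binding motif that was searched after the values were seen, which ends 43 bases before the start.
Hnf4aos: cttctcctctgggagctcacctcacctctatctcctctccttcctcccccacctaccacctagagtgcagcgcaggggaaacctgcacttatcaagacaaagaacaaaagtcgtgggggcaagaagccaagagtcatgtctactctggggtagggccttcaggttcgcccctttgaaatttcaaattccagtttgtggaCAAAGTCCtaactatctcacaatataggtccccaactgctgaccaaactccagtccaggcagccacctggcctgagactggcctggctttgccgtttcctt
Of the windows of all genes, 1.42% held CAAAGTCC on either strand, against 1 window (1.08%) among the transcripts and 4 (3.54%) among the base genes, those of Frs3, Gad1 and Tmem150c. The 9-letter form CAAAGTCCA, which overlaps the shorter motif, was in 0.475% of all windows, in 0 of the transcripts' windows and in 0 of the base genes'. A match is a description of letters, not a binding site. The table gave a window for 87 of the 107 transcripts and 87 of the 107 base genes. Emx2os had none.

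Most of the transcripts were listed at an exact 0. In FPKM, a fragment count divided by transcript length and library size, 58 of the 107 (54.2%) were at 0 in all 4 libraries, 21 were at 0 in 1 to 3 libraries and 28 were above 0 throughout. Base genes were listed at 0 in all libraries in 3 cases (2.80%) and over all names the share was 24.4%. An exact 0 in these tables can be a failed estimate as well as an absent RNA, so no fold change is given for a transcript with a 0. Of the transcripts above 0, 29 reached 1 FPKM in a library and 20 stayed under 1 FPKM in all 4. The number at 1 FPKM or more was 26 and 26 in the mutant libraries, against 22 and 24 in the control libraries.

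Zeros went with overlap of the deposited loci. Where the transcript overlapped its base gene in all 4 libraries, 54 of 72 transcripts (75.0%) were at 0 throughout and 8 were above 0 throughout. Where the loci were apart in all 4 libraries, 4 of 26 (15.4%) were at 0 throughout and 17 were above 0 throughout. Base genes had a median mean level of 9.31 FPKM in the first set and 13.2 FPKM in the second. Over the whole tables, where overlap was taken with any named locus on either strand, the shares lay close together. Of the 11169 names with an overlap in all libraries 25.9% were at 0 throughout, against 23.8% of the 11071 with none. The measures differ, since a transcript apart from its base gene can overlap another gene, as Hnf4aos overlapped R3hdml.

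**Figure D1:**
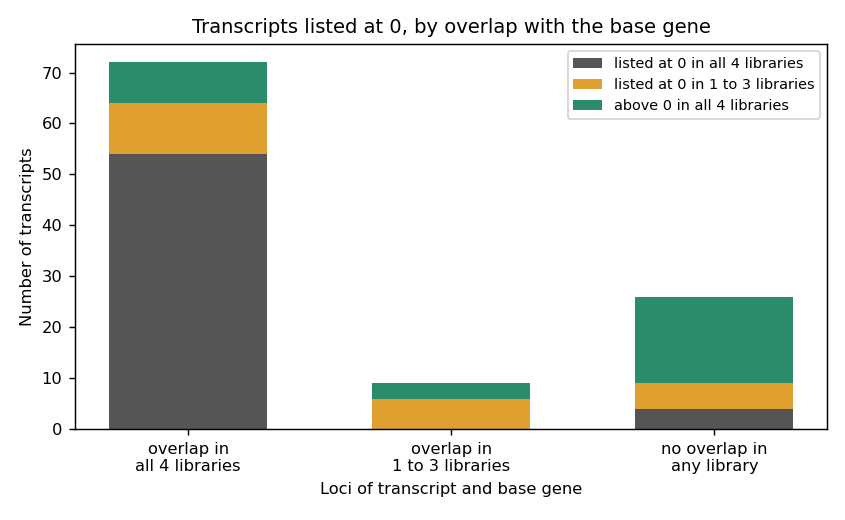
Number of opposite-strand transcripts (vertical axis) by whether their deposited locus overlapped that of the base gene in all 4, in 1 to 3 or in none of the libraries. Colours give transcripts listed at 0 in all, in 1 to 3 or in none of the libraries; zeros throughout make up 54 of 72, 0 of 9 and 4 of 26.

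Members at 0 in every library included transcripts beside strongly expressed kidney genes, named here after their values were seen. Igf2os was listed at 0 in all 4 libraries, while Igf2, the fetal growth factor, stood at 193 and 231 FPKM in the mutant libraries, against 185 and 189 FPKM in the control libraries. Nphs1os was likewise listed at 0, while Nphs1, the slit diaphragm protein nephrin of podocytes, stood at 16.2 and 15.4 FPKM in the mutant libraries, against 17.2 and 15.4 FPKM in the control libraries.

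In 9 pairs the loci overlapped in some libraries and not in others, because the assembled boundary of a partner moved. In 5 of them the base gene's boundary moved into the transcript (Fam120aos, Lhx1os, Zfp652os, Fancd2os and Dgkeos). All 8 library values of these transcripts with an overlap were 0, and 11 of the 12 values without one were above 0. The exception was Dgkeos in control replicate 1, listed at 0 without an overlap. In 3 pairs the transcript's own start moved into the base gene (Emx2os, Foxd2os and Cep83os). All 12 values of these transcripts were above 0: 5.41 to 27.0 FPKM with an overlap and 4.11 to 44.3 FPKM without. For Wt1os both boundaries moved, and its values went the other way. It was at 7.84 FPKM in the 1 library with an overlap and listed at 0 in the 3 without one. The cause of these shifts was not tested.

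**Figure D2:**
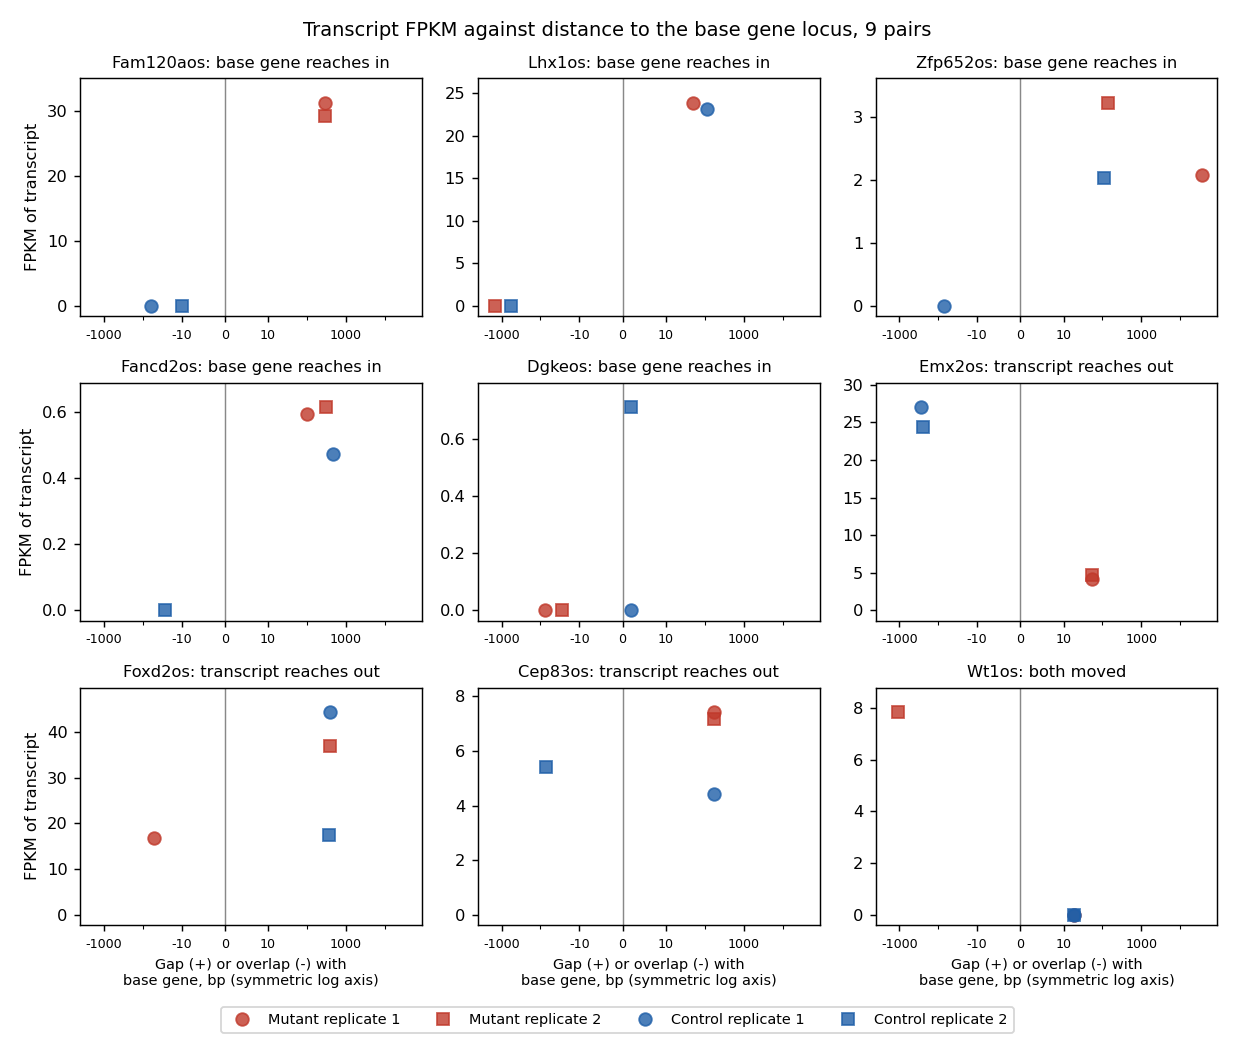
FPKM of the transcript (vertical axis, linear) against the distance in bp between its locus and that of the base gene (horizontal axis, symmetric log scale, negative for an overlap) in each library of the 9 pairs whose overlap changed. Red points are mutant and blue points control libraries; in the 5 pairs where the base gene reached in, each point left of 0 lies at 0 FPKM.

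Fam120aos, a transcript divergent from Fam120a, was at 31.2 and 29.1 FPKM in the mutant libraries and listed at 0 in both control libraries. The groups did not overlap; 0.132% of names (30 of 22662) were listed at 0 in both libraries of one group and at 1 FPKM or more in both of the other. The transcript's locus was chr13:49063481-49065274 (mm9) in every library. Fam120a encodes an RNA-binding scaffold protein and lies on the minus strand. Its assembled start was at 49063197 in both mutant libraries, a gap of 283 bp to the transcript. In the control libraries this start was at 49063540 and 49063490, an overlap of 60 and 10 bp. Fam120a itself was at 67.0 and 66.3 FPKM in the mutant libraries, against 77.8 and 72.3 FPKM in the control libraries (log2 change -0.17, SE 0.073, limma adjusted p = 0.75). Presence and absence of the transcript followed the boundary of its partner, library by library. That boundary divided the libraries as genotype did, so boundary and genotype cannot be told apart in this pair. Whether the boundary set the zeros was not tested.

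Emx2os was at 4.11 and 4.66 FPKM in the mutant libraries, against 27.0 and 24.4 FPKM in the control libraries. Both mutant values lay below both control values, with a mean of 4.39 ± 0.388 FPKM against 25.7 ± 1.82 FPKM (SD, n = 2 each), or 17.1% of control. The log2 change was -2.31 (SE 0.131). The authors' interval was 3.42 to 4.81 and 3.94 to 5.39 FPKM in the mutant libraries, against 22.4 to 31.6 and 17.7 to 26.5 FPKM in the control libraries. Emx2, a homeobox transcription factor needed for urogenital development, did not pass the test: it stood at 43.6 and 43.1 FPKM in the mutant libraries, against 43.6 and 45.7 FPKM in the control libraries (log2 change -0.04, SE 0.072, limma adjusted p = 0.882). The assembled start of Emx2os, which lies on the minus strand, differed with the groups. It was at chr19:59533125 (mm9) in both mutant libraries, 54 bp short of the start of Emx2, and at 59533448 and 59533430 in the control libraries, 269 and 251 bp inside Emx2. Reads from the start of Emx2 and from Emx2os cannot be told apart in that stretch. In whole kidneys, fewer cells that make a transcript and less of it per cell cannot be told apart either.

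Ccpg1os, a protein-coding gene by RefSeq class, was at 36.3 and 38.0 FPKM in the mutant libraries, against 13.3 and 14.4 FPKM in the control libraries. Both mutant values lay above both control values, with a mean of 37.2 ± 1.22 FPKM against 13.9 ± 0.803 FPKM (SD, n = 2 each), or 267.7% of control (log2 change 1.36, SE 0.094). The authors' intervals did not overlap between the groups: 21.9 to 50.6 and 23.8 to 52.2 FPKM in the mutant libraries, against 9.49 to 17.1 and 10.2 to 18.7 FPKM in the control libraries. Ccpg1, a receptor for autophagy of the endoplasmic reticulum, was at 25.5 and 29.3 FPKM in the mutant libraries, against 27.5 and 23.5 FPKM in the control libraries (log2 change 0.10, SE 0.126, limma adjusted p = 0.841). Here the pair never overlapped. The gap was 119 and 117 bp in the mutant libraries, against 127 and 127 bp in the control libraries. On the scale log2((transcript FPKM + 1)/(base gene FPKM + 1)), the pair was at 0.49 and 0.37 in the mutant libraries, against -1.0 and -0.67 in the control libraries, so the transcript exceeded its partner only in the mutant libraries.

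Of the 107 transcripts, 26 passed the filter of at least 1 FPKM in at least 2 libraries, and 3 of these passed an adjusted p of 0.05 in limma: Fam120aos (adjusted p = 0.00359) and Ccpg1os (adjusted p = 0.0453) higher in mutants, and Emx2os (adjusted p = 0.0335) lower. Over all 13287 genes tested 0.158% were called, 0.0452% higher and 0.113% lower in mutants. These 3 are the transcripts that led to the choice, so nothing is read from their count. Fam120aos passed the filter through the mutant libraries alone, and both control values in its fit are listed zeros, which can be failed estimates. None of the calls held when any 1 library was left out, while the log2 change kept its direction without each library (-2.38 to -2.24 for Emx2os and 1.30 to 1.41 for Ccpg1os). Among the other 23 tested transcripts the lowest adjusted p was 0.326. In 11 of these 23 the groups did not overlap, with a share of 39.8% over all tested genes, and 5 had an unadjusted p under 0.05, with a share of 7.24% over all tested genes. Of the 23, 19 were above 0 in every library; their log2 change was positive in 12 and negative in 7, with a median of 0.11, against 0.02 over the 13087 tested genes above 0 in every library. Members that passed the filter through the group where they were higher are among them, so these counts are a description.

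**Figure D3:**
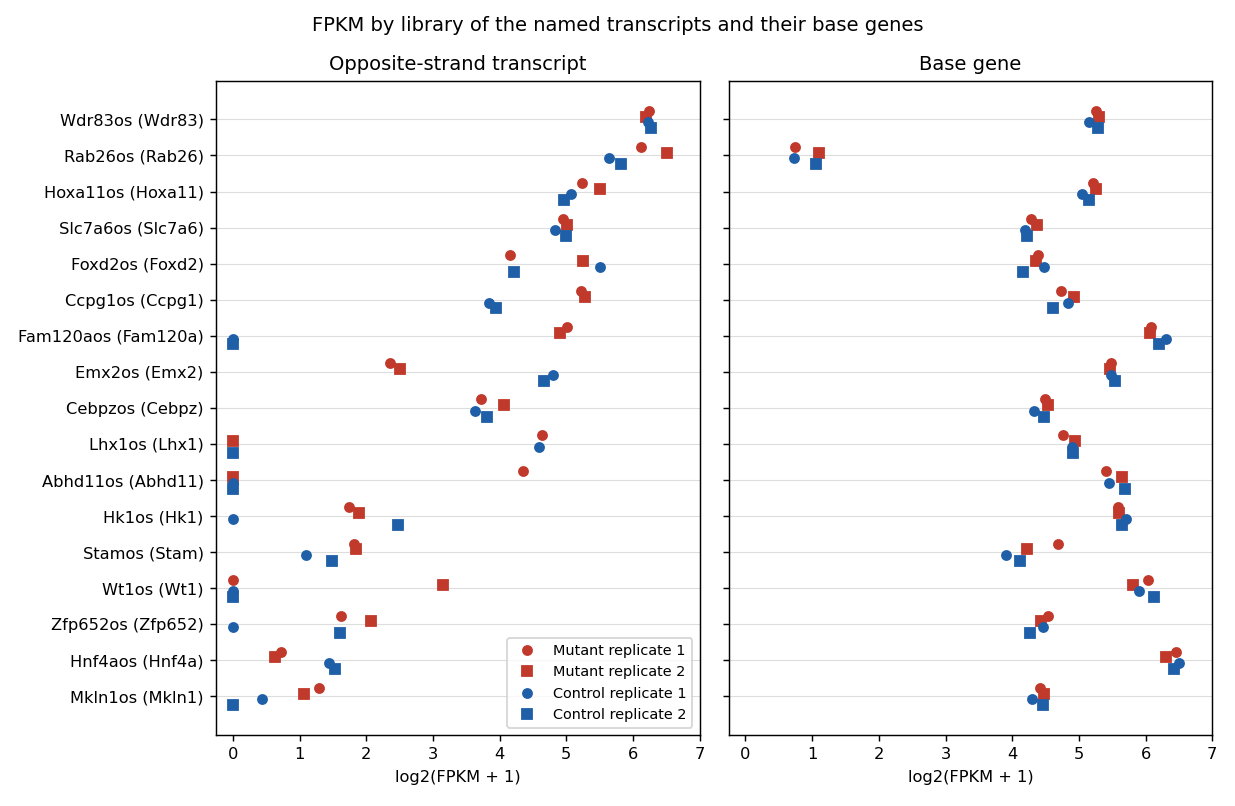
Levels as log2(FPKM + 1) (horizontal axes) of 17 opposite-strand transcripts (left) and their base genes (right) in each library, red for mutant and blue for control, circles for replicate 1 and squares for replicate 2. Groups do not overlap in Emx2os, Fam120aos and Ccpg1os, nor in Hnf4aos, Hoxa11os, Rab26os, Stamos, Mkln1os and Zfp652os. The share without overlap over all tested genes is 39.8%. Lhx1os splits by replicate number. Among the base genes shown, groups do not overlap in Emx2 (log2 change -0.04), Fam120a (-0.17), Stam (0.45), Hoxa11 (0.13), Slc7a6 (0.12), Cebpz (0.115) and Hk1 (-0.08).

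No base gene passed the test. Of the 83 that passed the filter, 0 were called by limma, with a share of 0.158% over all tested genes. Of these 83, 7 had an unadjusted limma p under 0.05, with a share of 7.24% over all tested genes. The lowest adjusted p was 0.323. The log2 changes of these 83 base genes ran from -0.82 to 0.90, with 39 positive and 44 negative and a median of -0.01. The base genes of the 17 transcripts described by library ran from -0.17 to 0.45.

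**Figure D4:**
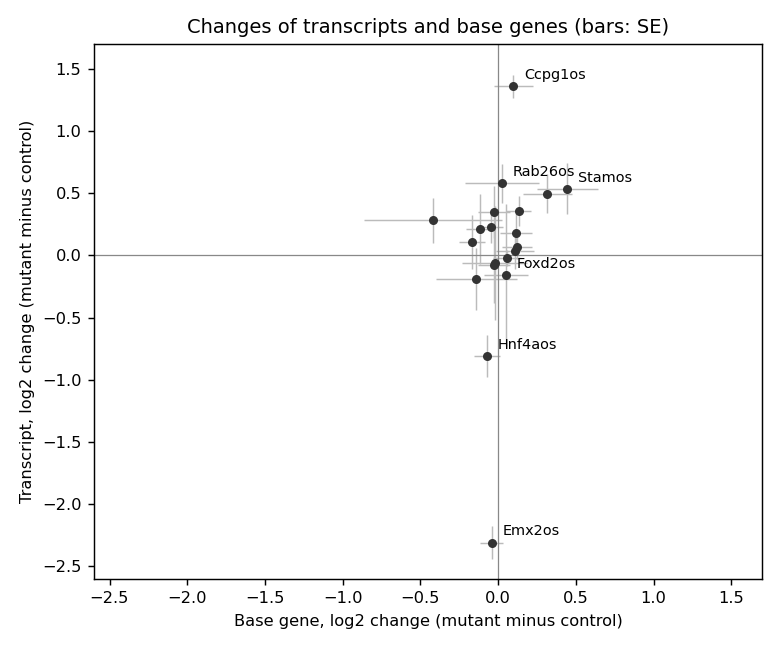
Log2 change, mutant minus control, of the transcript (vertical axis) against that of its base gene (horizontal axis) in 20 pairs where both were tested and above 0 in all libraries; bars are SE. Transcripts of 5 pairs have a log2 change of 0.5 or more in size, and base genes lie between -0.42 and 0.45.

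Hnf4aos lies beside the deleted gene. It was at 0.643 and 0.556 FPKM in the mutant libraries, against 1.71 and 1.89 FPKM in the control libraries. Both mutant values were the lower ones, at 33.3% of control, but the difference did not pass the threshold (log2 change -0.81, SE 0.171, limma adjusted p = 0.326), and the level was near the filter. Hnf4a was at 87.1 and 78.5 FPKM in the mutant libraries, against 89.3 and 84.6 FPKM in the control libraries (log2 change -0.07, SE 0.084, limma adjusted p = 0.828), so gene-level FPKM did not separate the groups at the targeted gene. Where the conditional deletion lies within the transcript is not given in the labels, and the FPKM of the whole gene is no check of it. The loci of Hnf4aos and Hnf4a were apart by 5466 and 5437 bp in the mutant libraries, against 5392 and 5422 bp in the control libraries, and Hnf4aos overlapped R3hdml.

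Lhx1os, divergent from a LIM homeobox gene of the early nephron, followed the replicate number and not the genotype. It was at 23.9 FPKM in mutant replicate 1 and 23.1 FPKM in control replicate 1, and listed at 0 in replicate 2 of both groups. Lhx1 was at 26.0 and 29.7 FPKM in the mutant libraries, against 28.9 and 29.0 FPKM in the control libraries. The assembled start of Lhx1 lay 50 bp (mutant) and 112 bp (control) short of the transcript in replicate 1. In replicate 2 it lay 1443 bp (mutant) and 566 bp (control) inside the transcript. Inside the Lhx1os locus the replicate 2 tables listed unnamed loci that replicate 1 did not: 3 in the mutant library, at 2.04, 3.56 and 4.16 FPKM, and 1 in the control library, at 3.38 FPKM. Other genes also split by replicate number. Ddx3y, on the Y chromosome, was at 26.4 and 0.0265 FPKM in mutant replicates 1 and 2, against 27.7 and 0.0301 FPKM in control replicates 1 and 2. Xist, which coats the inactive X chromosome, was at 0.131 and 74.0 FPKM in mutant replicates 1 and 2, against 0.0789 and 81.0 FPKM in control replicates 1 and 2. These values are the pattern of male tissue in replicate 1 and female tissue in replicate 2 of both groups, while the labels give no sex. The part of sex or replicate number in the Lhx1os values was not tested.

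Partners of 3 more developmental transcription factors were among the transcripts described by library. Others, such as Tbx3os2 and Msx1os, were measured too. Hoxa11os, antisense to a homeobox gene of kidney patterning and overlapping it by 801 to 810 bp, was at 36.8 and 44.4 FPKM in the mutant libraries, against 32.7 and 30.1 FPKM in the control libraries. It did not pass (log2 change 0.36, SE 0.12, limma adjusted p = 0.635), and Hoxa11 was at 36.0 and 37.1 FPKM in the mutant libraries, against 32.1 and 34.5 FPKM in the control libraries. Foxd2os varied more within than between groups. It was at 16.9 and 36.9 FPKM in the mutant libraries, against 44.3 and 17.6 FPKM in the control libraries (log2 change -0.16, SE 0.574, limma adjusted p = 0.948). The forkhead gene Foxd2 was at 19.9 and 19.4 FPKM in the mutant libraries, against 21.2 and 16.9 FPKM in the control libraries. Wt1os was at 7.84 FPKM in mutant replicate 2, where it overlapped Wt1 by 1089 bp. It was listed at 0 in mutant replicate 1 and both control libraries, where a gap of 18 bp lay between the loci. Unnamed loci inside the Wt1os locus were at 7.60 and 6.09 FPKM in mutant replicate 1. In mutant replicate 2 they were at 9.69 and 8.97 FPKM. Control replicate 1 had 1 such locus, at 4.89 FPKM, and control replicate 2 had 0. Wt1, a transcription factor of nephron progenitors and podocytes, was at 64.8 and 55.2 FPKM in the mutant libraries, against 58.6 and 69.2 FPKM in the control libraries.

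Beside Ccpg1os, 3 members of the protein-coding class were above 0 in every library. Wdr83os, 216 bp from Wdr83, was at 74.7 and 72.6 FPKM in the mutant libraries, against 73.6 and 76.1 FPKM in the control libraries (log2 change -0.02, SE 0.067, limma adjusted p = 0.937). Slc7a6os, beside an amino acid exchanger gene, was at 29.9 and 31.3 FPKM in the mutant libraries, against 27.3 and 30.9 FPKM in the control libraries (log2 change 0.07, SE 0.098, limma adjusted p = 0.852). Cebpzos, which overlaps Cebpz by 2046 bp, was at 12.2 and 15.7 FPKM in the mutant libraries, against 11.3 and 13.0 FPKM in the control libraries (log2 change 0.18, SE 0.166, limma adjusted p = 0.794). The groups overlapped in all 3. With Ccpg1os, 4 of 8 protein-coding members were above 0 in every library, against 24 of 99 members of other classes. Start sites within 500 bp of the base gene's start in every library were found for 22 members, 12 of them above 0 throughout, against 15 of the 82 other members with known strands.

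Rab26os is a case where the opposite-strand RNA far exceeded its partner. It was at 68.5 and 89.9 FPKM in the mutant libraries, against 48.9 and 55.5 FPKM in the control libraries. Both mutant values were higher, but the difference did not pass (log2 change 0.58, SE 0.157, limma adjusted p = 0.486). The values of mutant replicate 1 and control replicate 2 lay above their own deposited intervals (16.2 to 34.6 and 12.7 to 28.5 FPKM), so the level of this transcript is uncertain. Rab26, a small GTPase of vesicle traffic, was at 0.667 and 1.15 FPKM in the mutant libraries, against 0.663 and 1.09 FPKM in the control libraries. In all, 9 of the 107 transcripts had a higher mean FPKM than their base gene. Of 153 transcript values above 0, 4 lay outside their own interval, in Rab26os, Wdr83os and Abhd11os.

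The remaining members described by library were low or had zeros. Stamos, beside the endosomal sorting gene Stam, was at 2.53 and 2.58 FPKM in the mutant libraries, against 1.14 and 1.80 FPKM in the control libraries (log2 change 0.54, SE 0.205, limma adjusted p = 0.703). Mkln1os was at 1.44 and 1.09 FPKM in the mutant libraries, against 0.358 FPKM and a listed 0 in the control libraries (limma adjusted p = 0.453). Neither passed the threshold, and the base genes Stam (24.7 and 17.7 FPKM in mutant, 14.0 and 16.3 FPKM in control libraries) and Mkln1 (20.5 and 21.2 FPKM in mutant, 18.6 and 21.0 FPKM in control libraries) did not either. Abhd11os was at 19.3 FPKM in mutant replicate 1 and listed at 0 in the 3 other libraries, with Abhd11 at 41.6 and 49.0 FPKM in the mutant libraries, against 42.7 and 50.9 FPKM in the control libraries. Hk1os, inside the hexokinase gene Hk1, was at 2.34 and 2.70 FPKM in the mutant libraries, against a listed 0 and 4.59 FPKM in the control libraries. Zfp652os was at 2.07 and 3.22 FPKM in the mutant libraries, against a listed 0 in control replicate 1, the library where Zfp652 reached into it, and 2.03 FPKM in control replicate 2. The zeros of Abhd11os, Hk1os and Zfp652os did not divide the libraries by genotype. The 11 other tested members had means of 1.22 to 11.7 FPKM over the 4 libraries and log2 changes of -0.26 to 0.50, with a lowest limma adjusted p of 0.596.

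Names built with os1, as, as1 or as2 were a companion list of 16 names, of which 8 were at 0 throughout. Of the 3 tested, 0 were called by limma and 0 had an unadjusted p under 0.05. A list of long noncoding RNAs fixed by name shared Hoxa11os and Wt1os with the opposite-strand transcripts and Six3os1 and Dlx6os1 with the companion list. Without Hoxa11os and Wt1os, 19 were measured, 13 tested and 0 called (3 at an unadjusted p under 0.05, with a share of 7.24% over all tested genes), with 11 log2 changes positive, 2 negative and a median of 0.33. The highest of them, the snoRNA host Gas5, was at 103.6 and 202.2 FPKM in the mutant libraries, against 129.2 and 223.4 FPKM in the control libraries.

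The tables give no read totals, so depth is unknown. Named genes at 1 FPKM or more numbered 13162 and 13206 in the mutant libraries, against 13106 and 13142 in the control libraries. All 12 measured kidney markers were above 1 FPKM in each library, and their sum was lower in the mutant libraries, at 713.9 and 642.1 FPKM, against 817.7 and 727.5 FPKM in the control libraries. Summed gonad markers were also lower, at 9.43 and 8.36 FPKM in the mutant libraries, against 12.7 and 19.7 FPKM in the control libraries. Amh, Foxl2, Ddx4 and Dazl were under 1 FPKM in every library, so the gonad sum came mostly from Sox9 and Inha. Summed erythroid markers (3 of 5 measured) were higher, at 28.4 and 31.2 FPKM in the mutant libraries, against 21.5 and 26.0 FPKM in the control libraries. The groups overlapped in the sums of the other lists. Summed liver markers were at 37.0 and 79.9 FPKM in the mutant libraries, against 41.2 and 49.8 FPKM in the control libraries, and summed urothelial markers at 140.2 and 85.5 FPKM in the mutant libraries, against 96.3 and 78.0 FPKM in the control libraries. Of adrenal, gonad and nerve markers, 5 of 6, 4 of 6 and 5 of 5 were under 1 FPKM in every library. No marker list held a called gene. Their part in the transcripts' values was not tested.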

How the data were processed

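Poly(A)-selected RNA of whole kidneys was sequenced, 2 mutant and 2 control libraries. The FPKM values, with an interval per row, were computed by the authors and deposited as 1 table per library. Reads were handled with Cufflinks 2.1.1, TopHat2 2.0.11, SAMtools 0.1.19 and Bowtie 1.0.0 on build mm9, per the submitters' processing notes. Options and annotation are not given in the sources used. Gene numbers differ between tables, and loci were assembled in each library apart, so boundaries moved between libraries for 10 of the 107 transcripts, 40 of the base genes and 5838 of all names.

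Rows were joined by symbol (22761 of 23852 names were in all 4 tables). FPKM was summed over rows of 1 name (158 names, 0 of them transcripts described here). From the test, 99 names with a row not marked OK were left out, among them Msx1os, Peg3os and Phtf1os. The test, limma 3.58.1 in R 4.3.3 with a variance trend and no covariate, compared log2(FPKM + 1) of names that reached 1 FPKM in 2 libraries or more. P-values were adjusted over all 13287 of them by Benjamini-Hochberg, with a threshold of 0.05. This scale understates changes of low genes. An exact permutation test of 2 against 2 libraries cannot go below p = 0.333. The test was checked on simulated normal values, which hold no listed zeros, so the check does not cover transcripts listed at 0. Overlaps and gaps come from the deposited mm9 loci; strand and class come from GENCODE M21 and RefSeq by symbol, and start windows from RefSeq (GRCm38.p6), with no coordinates converted.

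Values by library are given for Emx2os, Fam120aos and Ccpg1os, called transcripts, those at 0 in one library and at 1 FPKM or more in another, the 10 highest means, log2 changes of 0.5 or more in size, and their base genes: 17 transcripts. The members and lists were chosen with earlier results of these data known. The motif CAAAGTCC and the alternative without genes of moving loci were added after seeing the data.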

Additional observations from a re-analysis of the deposited data

How the results depend on the processing

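The 3 called transcripts (21 of all genes) depended on processing. Without the filter on low values 1 transcript was called (Fam120aos; 10 of all genes), with genes listed at 0 left out 1 (Emx2os; 10), without the variance trend 2 (11), and without genes whose locus moved between libraries, an alternative chosen after seeing the data that drops Emx2os and Ccpg1os, 1 (Fam120aos; 33). With the replicate number as a block, 1 transcript (Fam120aos) and 6 of all genes were called. The limma adjusted p was then 0.115 for Emx2os and 0.115 for Ccpg1os. Deviations of same-numbered libraries correlated at r = 0.146 over 13287 genes with 2 pairs. Ddx3y and Xist split by this number in both groups, and the labels do not say that numbers pair animals. With 1 library left out, 0 transcripts and 0 to 21 of all genes were called by limma, the lone library taken to vary like the other group. Base genes called were 0 in every setting. Emx2os ran from -2.52 to -1.71 (limma adjusted p 0.0277 to 0.176) and Ccpg1os from 1.16 to 1.42 (0.0376 to 0.176) over 14 settings. With 1 library left out, signs turned for Foxd2os (-0.80 to 0.49; 0.39 without mutant replicate 1), Slc7a6os (-0.02 to 0.16), Wdr83os (-0.05 to 0.0), Ccpg1 (-0.01 to 0.21) and Hnf4a (-0.14 to 0.0). The causes were not tested. Hnf4aos ran from -1.44 to -0.28 in the 12 alternatives that gave a value; without either control library, and with a minimum mean of 5 FPKM, it did not pass the filter and was not tested. Depth is unknown, so no floor can be given from it for a listed 0. The authors' interval of a listed 0 varied in its upper bound. It was 7.30 FPKM for Abhd11os in mutant replicate 2 and 0.274 FPKM for Fam120aos in control replicate 2. In control replicate 1 the bound was 0 for both transcripts.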

Other observations

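Beyond the transcripts described by library in the report, 13 members had groups that did not overlap. Of these, 5 were among the 11 tested members not described by library, with a share of 39.8% over all tested genes. The 8 others were not tested, and the share over untested genes was not computed. The 4 of these 13 members given here were chosen after the values were seen. Zfp85os was listed at 0 in both mutant libraries, against 0.301 and 0.566 FPKM in the control libraries. Arhgap33os was at 0.335 and 0.386 FPKM in the mutant libraries, against 0.111 and 0.164 FPKM in the control libraries. Cep83os, which passed the filter, was at 7.43 and 7.19 FPKM in the mutant libraries, against 4.42 and 5.41 FPKM in the control libraries, with an overlap of 74 bp with Cep83 in control replicate 2 and a gap of 176 bp in the other libraries (log2 change 0.50, SE 0.156, limma adjusted p = 0.596). Phtf1os, which was left out of the test because a row was not marked OK, was at 5.87 and 7.39 FPKM in the mutant libraries, against 4.49 and 4.68 FPKM in the control libraries. Of the 4, Cep83os alone was tested in the comparison and it was not called. Slc6a19os and Slc13a2os, beside transporter genes of the proximal tubule, did not exceed 0.201 FPKM in any library.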
